A study of Mus musculus with 3 samples.

Results

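The MHC class II antigen presentation genes were examined in developing thymocytes through 8 members: Cd74, H2-Aa, H2-Ab1, H2-Eb1, H2-DMa, H2-DMb1, H2-DMb2 and Ciita. They were chosen by their symbols and make up 8 of the 27734 genes listed in all 3 runs of single-cell RNA sequencing. All 8 were listed in every run. Thymi of C57BL/6 mice, given as 6 weeks old, were pooled in groups of 4, depleted of cells bearing CD4 or CD8, and sorted by flow cytometry. The first run held total CD4-CD8- double negative (DN) and TCRγδ+ thymocytes, the second only the DN1 and DN2 stages, from which TCRγδ+ cells had been gated out, and the third a mixture of 3 separate sorts (DN1 with DN2, DN3, and TCRγδ+). No mouse carried a mutation or received a treatment according to the labels, and each sort was sequenced once, so that sort and library cannot be told apart between runs and no run was tested against another.

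MHC class II molecules are surface proteins that show peptides to CD4 T cells, and in mice they are found mainly on B cells, dendritic cells, macrophages and thymic epithelium. An α chain and a β chain pair in the endoplasmic reticulum with the invariant chain, travel to acid compartments where the invariant chain is cut away, and receive a peptide with the help of the DM molecule. Their genes share promoter boxes that are bound by the RFX, NF-Y and CREB factors, and are switched on by the coactivator CIITA, which is itself present in few cell types. Mouse T cells and their DN precursors are not known to present peptide on class II.

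The genes were described in 5 gates, set by UMIs (unique molecular identifiers, each standing for a captured transcript) of other genes. The B cell gate took cells with at least 3 UMIs over at least 2 of 6 B cell genes, among them Cd79a, Cd79b, Ms4a1, Pax5 and Ebf1. Among the rest, the Cd34 gate (progenitors) needed 1 Cd34 UMI, the Apoe gate 2 Apoe UMIs, the Trdc gate (TCRδ transcripts) 5 Trdc UMIs and the Trac gate (TCRα transcripts) 3 Trac UMIs, while cells that met several were left out. They were compared with reference cells, which had at least 3 UMIs of Ptcra, the pre-TCR α chain of DN thymocytes, no UMI of the 6 B cell genes and a place in none of the 5 gates. The Cd34, Apoe, Trdc and Trac gates could hold cells with some UMIs of the 6 genes. The B cell gate held 5, 19 and 447 cells in runs 1, 2 and 3, the Cd34 gate 30, 321 and 224, the Apoe gate 43, 13 and 107, the Trdc gate 1284, 2263 and 2108, the Trac gate 32, 1919 and 979, and the reference 461, 276 and 419. The sort had excluded cells stained for B220, CD11b, CD11c, NK1.1 or TCRβ, B220 being a B cell marker. Cells of a gate share a library and are not replicates.

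Run 1 held 5527 cells and 39947415 UMIs, run 2 held 8887 cells and 52797915 UMIs, and run 3 held 8869 cells and 98533329 UMIs. Limits of 500 to 5000 genes per cell and 7% of counts from mitochondrial genes left 5516, 8852 and 7511 cells with median depths of 5990, 4844 and 8507 UMIs. Runs 1 and 2 shared 72 cell barcodes, runs 1 and 3 shared 3 and runs 2 and 3 shared 0, none of them in a B cell gate. T cell markers (Cd3d, Cd3e, Cd3g, Lck, Ptcra, Il2ra) summed to between 930 and 7361 CPM, the UMIs of a gene scaled to a fixed total of all UMIs, in the 4 gates other than B cell and in the reference, and to between 476 and 2573 CPM in the B cell gate. Levels below are CPM of the summed cells of a gate in a run, with exact Poisson 95% intervals that cover counting error only. The libraries count 3′ ends, so that values of different genes are not scaled by length.

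Per the GENCODE vM21 annotation of GRCm38, the build of the files, the 6 H2 members lie on chromosome 17, where H2-DMa spans 34119541 to 34139101, H2-DMb2 34143307 to 34151555, H2-DMb1 34153072 to 34160230, H2-Ab1 34257689 to 34269419 and H2-Eb1 34305867 to 34316674, all on the plus strand, while H2-Aa spans 34282744 to 34287823 on the minus strand. Ciita spans 10480059 to 10528418 on chromosome 16. H2-DMa overlaps Brd2 on the opposite strand over 3094 bases and Ciita overlaps Dexi on the opposite strand over 25888 bases. The overlap with Dexi runs from 10502531 to the 3′ end of Ciita. H2-DMb1 and H2-DMb2 share 369 stretches of 50 bases, 22.7% of those of H2-DMb1, so that their counts are uncertain against each other where reads fall in them. In the last 500 bases of the longest transcript, nearest the counted 3′ end, 20.4% of the stretches of H2-DMb1 and 0% of those of H2-DMb2 were shared.

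Promoter entries in RefSeq (GRCm38.p6) were found for 5 of the 8 members, H2-Aa, H2-Eb1, H2-DMb1, H2-DMb2 and H2-DMa. The 150 bases before each start are shown so that the boxes named above can be seen where they occur. Capitals mark CTGATTGG (the Y box), ATTGG (the inverted CCAAT within it, on either strand), AGCAAC (the X box core) and GATGATGCT, which was searched for after the promoters had been seen. For H2-Aa the window is chr17:34287824-34287973 (minus strand), for H2-Eb1 chr17:34305717-34305866, for H2-DMb1 chr17:34153041-34153190, for H2-DMb2 chr17:34145099-34145248 and for the first of 2 starts of H2-DMa chr17:34122682-34122831, the last 4 on the plus strand.
H2-Aa: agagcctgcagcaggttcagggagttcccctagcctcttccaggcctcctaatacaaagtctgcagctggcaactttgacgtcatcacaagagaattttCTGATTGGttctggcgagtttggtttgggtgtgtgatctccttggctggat
H2-Eb1: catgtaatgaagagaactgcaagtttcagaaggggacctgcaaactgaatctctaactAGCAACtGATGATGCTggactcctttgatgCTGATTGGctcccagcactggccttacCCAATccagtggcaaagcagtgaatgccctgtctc
H2-DMb1: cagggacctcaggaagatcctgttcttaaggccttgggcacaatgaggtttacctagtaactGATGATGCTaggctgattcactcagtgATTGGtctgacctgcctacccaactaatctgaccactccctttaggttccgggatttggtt
H2-DMb2: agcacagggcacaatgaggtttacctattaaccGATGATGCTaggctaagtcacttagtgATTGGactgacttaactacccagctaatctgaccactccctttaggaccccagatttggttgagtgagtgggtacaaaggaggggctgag
H2-DMa: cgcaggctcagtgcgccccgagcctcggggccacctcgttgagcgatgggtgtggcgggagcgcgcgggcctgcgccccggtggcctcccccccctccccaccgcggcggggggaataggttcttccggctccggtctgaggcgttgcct

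CTGATTGG began 51 bases before the start of H2-Aa and 62 bases before that of H2-Eb1, and 3.16% of all 32851 promoters held it on either strand in this window. ATTGG without the longer box began 61 bases before the start of H2-DMb1 and 90 bases before that of H2-DMb2, against 24.5% of all promoters with it. GATGATGCT was found in H2-Eb1, H2-DMb1 and H2-DMb2 and in 0.134% of all promoters, and AGCAAC in H2-Eb1 and in 7.75%. Neither window of H2-DMa held any of these letters. The first H2-DMa window had 76% GC and 18 CG pairs, against medians of 54% and 4 over all promoters. The second had 32% GC and 0 CG pairs. The first window begins at 34122682, near the 5′ end of Brd2 on the opposite strand at 34122634. A match describes letters in a window and not binding.

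The invariant chain gene Cd74 (chromosome 18, 60803848 to 60812652, plus strand) was the most counted member in the B cell gate, at 7720 CPM (95% interval 6898 to 8612) in run 1, at 6389 CPM (6070 to 6720) in run 2 and at 7957 CPM (7861 to 8054) in run 3. In the reference cells it was at 17.9, 1.04 and 10.2 CPM, so that B cell gates and reference did not overlap in any run. In run 3 the ratio of B cell gate to reference was 782 (574 to 1095). The B cell gates held 40.7%, 62.7% and 95.03% of the Cd74 UMIs of the kept cells of runs 1, 2 and 3, although they made up 0.0907%, 0.215% and 5.95% of these cells.

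The genes of the classical α and β chains were likewise highest in the B cell gate, at lower levels than Cd74. H2-Aa, the α chain of the I-A molecule, was at 1659, 646 and 2234 CPM in the B cell gates of runs 1, 2 and 3 and at 6.59, 0 and 2.04 CPM in the reference. H2-Ab1, its β chain, was at 2405, 663 and 2141 CPM and at 16.6, 17.2 and 10.4 CPM, and H2-Eb1, the β chain of I-E, at 1106, 399 and 1687 CPM and at 3.45, 0.52 and 2.29 CPM. The C57BL/6 strain makes no I-E α chain, and neither H2-Ea nor H2-Ea-ps was among the symbols listed. The run 2 values lay below those of runs 1 and 3 for all 3 chains.

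The genes of the peptide loading machinery were less counted. H2-DMa and the β chain genes H2-DMb1 and H2-DMb2 encode DM, which exchanges the invariant chain remnant for peptide. H2-DMa was at 313, 46.7 and 270 CPM in the B cell gates of runs 1, 2 and 3. In the reference it was at 41.4, 62.1 and 46.8 CPM, so that in CPM the run 2 B cell gate was not above its reference. Igkc, an immunoglobulin gene, alone took 341254 CPM of the run 2 B cell gate, and CPM are shares of a fixed total. Its part in the H2-DMa value was not tested. The fit described below put H2-DMa at a log2 difference of 0.88 without run 3, with these 19 cells as the only B cell sum. H2-DMb2 was at 409, 93.5 and 373 CPM in the B cell gates and at 3.14, 7.30 and 4.07 CPM in the reference. H2-DMb1 was at 24.1, 17.0 and 63.3 CPM on 1, 4 and 207 UMIs, and at 4.71, 9.39 and 6.61 CPM in the reference. Ciita, the coactivator, gave 0, 2 and 582 UMIs in the B cell gates and 1, 0 and 1 UMIs in the reference, and in run 3 its 178 CPM stood at 700 times the reference (125 to 27699).

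**Figure D1:**
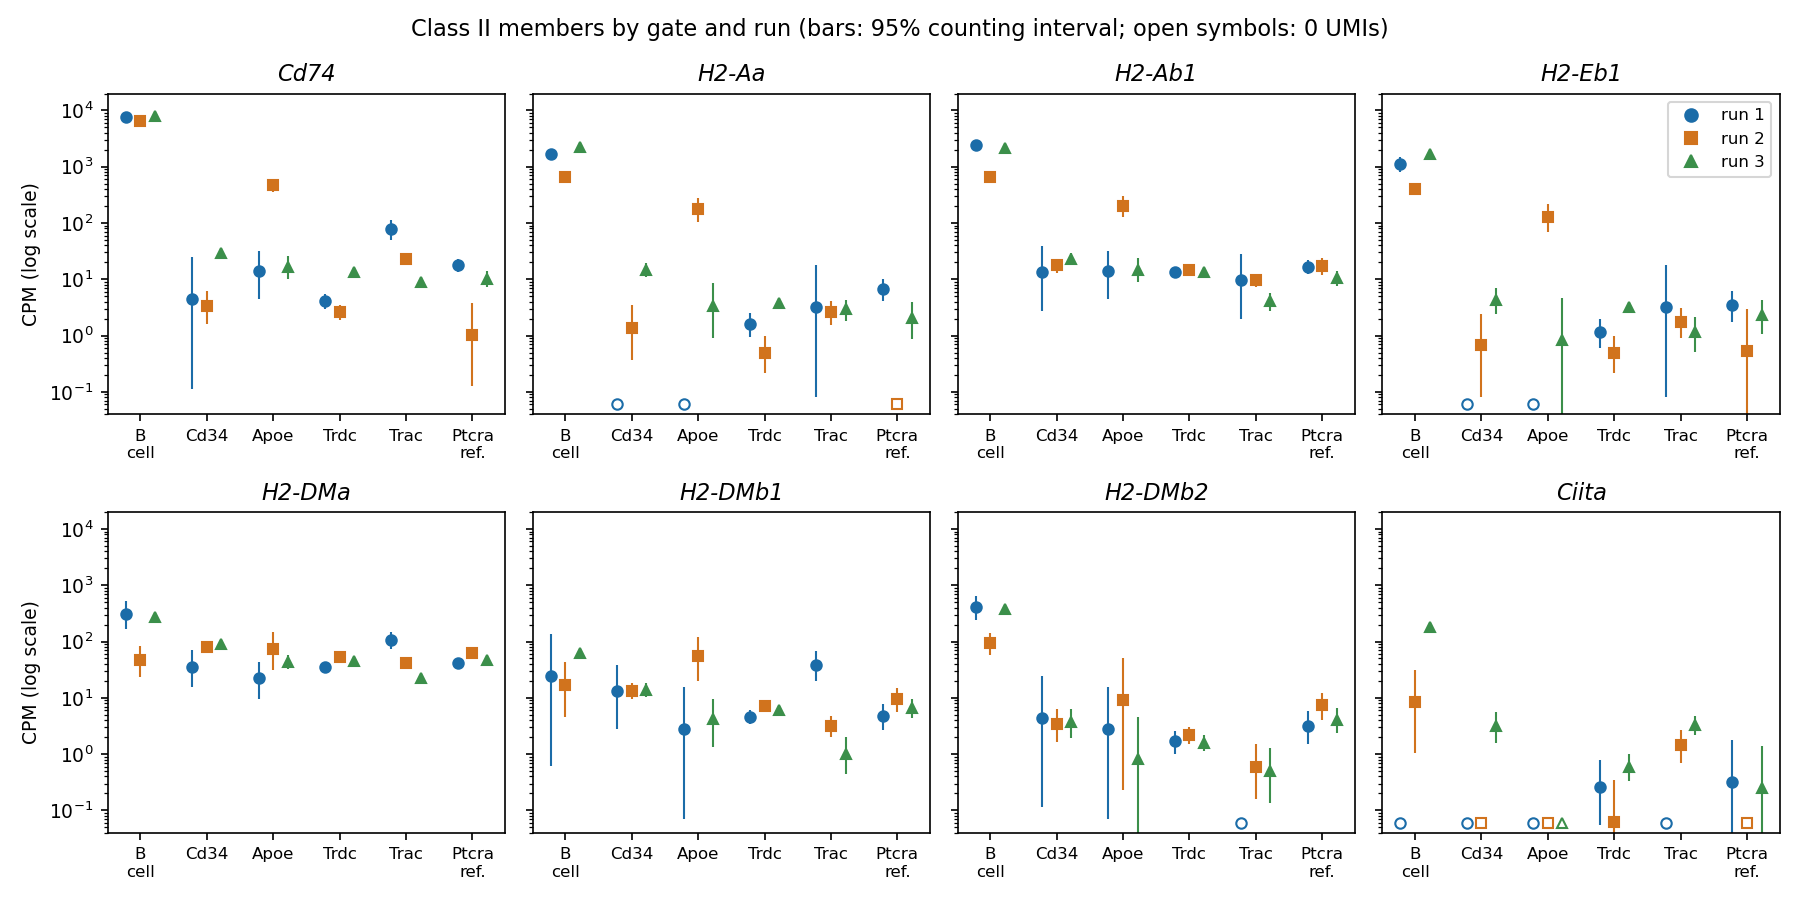
CPM of each member (log axis) in the 5 gates and the Ptcra reference, with 1 symbol for each run, exact Poisson 95% intervals as bars and open symbols at the bottom for 0 UMIs. Cd74 is at 6389 to 7957 CPM in the B cell gates, while H2-DMa lies between 22.2 and 106 CPM in every other gate and in the reference.

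Counts summed per gate and run were then tested in 1 fit with run as a block (edgeR quasi-likelihood test, 17 sums, since the 5 cells of the first B cell gate were under the minimum of 10). All 8 members were called higher in the B cell gate than in the reference at an adjusted p under 0.05, against 13.6% of the 11286 genes tested. Their median log2 difference was 8.02, against -0.02 over all genes tested. The difference was 10.11 ± 1.21 (log2, SE) for Cd74, with an edgeR adjusted p of 4.7e-06, and lay between 7.11 and 9.34 for H2-Aa, H2-Ab1 and H2-Eb1. It was 6.22 ± 0.30 for H2-DMb2, 3.39 ± 0.57 for H2-DMb1 and 2.33 ± 0.38 for H2-DMa, the smallest of the 8 (edgeR adjusted p = 1.5e-04). The value of 8.93 for Ciita is set against 2 reference UMIs in all and depends on the prior count. Outside the B cell gate Ciita was at 3.29 CPM or less, so that it passed the filter on low counts through the B cell gate. Its place among the genes tested was thus set in part by the gate in which it was called. Without that filter the calls of all members stayed the same. The B cell gate entered this fit by its sums of runs 2 and 3 alone. Without run 3 the gate was left with the run 2 sum of 19 cells, and H2-DMa fell to 0.88, H2-DMb1 to 2.39 and Ciita to 6.98. Leaving out a run is thus no check by replicates for this gate.

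The other genes of the class II pathway were read from a list of 23 symbols, of which 20 were listed in all runs and 19 could be tested. In the B cell gate 10 of them were called higher and 2 lower, against 13.6% and 7.54% of all genes tested. The higher ones were H2-Oa and H2-Ob (the DO molecule, which restrains DM), H2-Eb2 (a further β chain gene), the proteases Ctss and Lgmn and the thiol reductase Ifi30, which act in the loading compartments, March1 (a ubiquitin ligase that removes class II from the surface), its opponent Cd83, and the costimulatory receptors Cd86 and Cd40. Ctss, which cuts the invariant chain in B cells, was at 264, 472 and 235 CPM in the B cell gates and at 2.82, 3.13 and 1.27 CPM in the reference (log2 difference 7.41 ± 0.57). The lower ones were Ctsl, the protease that cuts the invariant chain in thymic epithelium (-1.16 ± 0.34), and Mif, a ligand of CD74 (-1.15 ± 0.27). The promoter binding factors Rfx5, Rfxap, Rfxank, Creb1, Nfya, Nfyb and Nfyc did not pass the test, with log2 differences between -0.23 and 0.78.

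**Figure D2:**
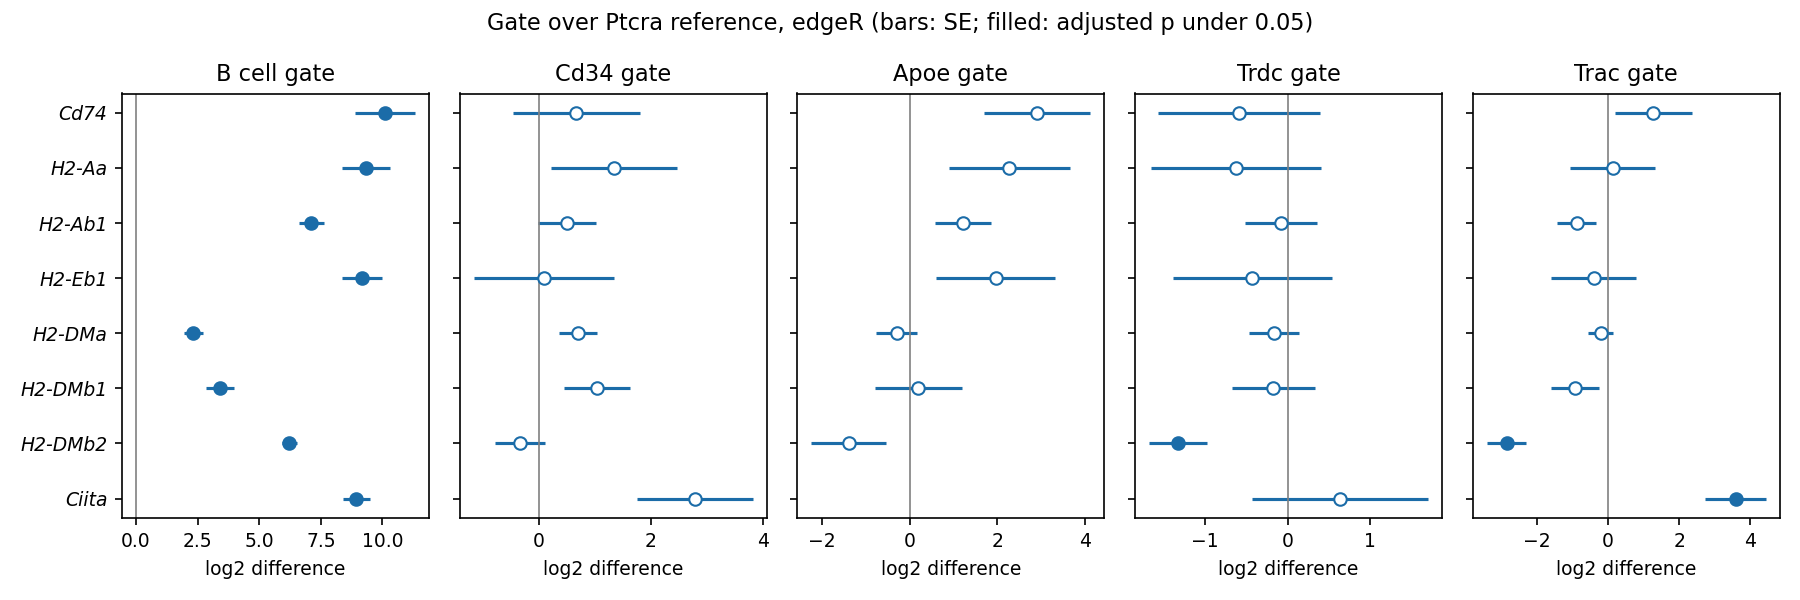
Fitted log2 differences between each gate and the Ptcra reference for the 8 members, with SE as bars and filled points for an edgeR adjusted p under 0.05. All 8 points of the B cell gate are filled and above 0, between 2.33 and 10.11, while the Trdc gate has 1 filled point and the Trac gate 2. Ciita has no point in the Apoe gate, where it had 0 UMIs in every run.

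Cells of the B cell gate differed among themselves. In run 3, 53.0% of them had 100 or more UMIs over the 8 members, 11.2% had none and 79.9% had a Cd74 UMI, while all 5 and all 19 cells of runs 1 and 2 had a Cd74 UMI. The gate was divided by Ms4a1, the gene of CD20 that comes on as B cells mature, and by Jchain, the joining chain of secreted antibody. Both divisions were made after the data had been seen and are given as description. Of the run 3 cells, 301 had Ms4a1 and under 10 Jchain UMIs, 139 had no Ms4a1 and under 10 Jchain UMIs, and 7 had 10 or more Jchain UMIs.

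The cells with Ms4a1 had a median of 153 class II UMIs (quartiles 104 and 213), and 93.0% had at least 10. The cells without Ms4a1 had a median of 1 (quartiles 0 and 3), and 9.35% had at least 10. Median depth was 5439 UMIs with Ms4a1 and 5718 UMIs without it, and the medians over the 6 B cell gate genes were 42 and 34 UMIs, Ms4a1 being 1 of these 6. Cd74 was at 12882 CPM and 446 CPM, H2-Ab1 at 3459 and 175 CPM, and H2-DMa at 437 and 26.2 CPM, the latter below its reference value of 46.8 CPM.

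The cells without Ms4a1 carried transcripts of antigen receptor recombination and of the surrogate light chain. Rag1 or Rag2 was counted in 53.2% of them and in 6.64% of those with Ms4a1, and Vpreb1, Vpreb3 or Igll1 in 74.8% and 27.6%. Mki67, a gene of dividing cells, was counted in 35.3% and 10.3%. At least 2 T cell marker UMIs were found in 61.2% of the cells without Ms4a1 and in 35.2% of the others, and 25.9% and 12.3% were among the 8% of cells with the highest doublet scores. Among cells without T cell marker UMIs at that level, 93.3% of 195 cells with Ms4a1 and 11.1% of 54 without it had at least 10 class II UMIs, and Cd74 was at 16036 and 1200 CPM. Of these cells 0.513% and 24.1% were among the highest doublet scores. The part of doublets was not tested.

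Runs 1 and 2 did not show this division. Each held 1 cell of the B cell gate with neither Ms4a1 nor 10 Jchain UMIs, with 110 and 68 class II UMIs, and every cell of these 2 gates had at least 10.

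**Figure D3:**
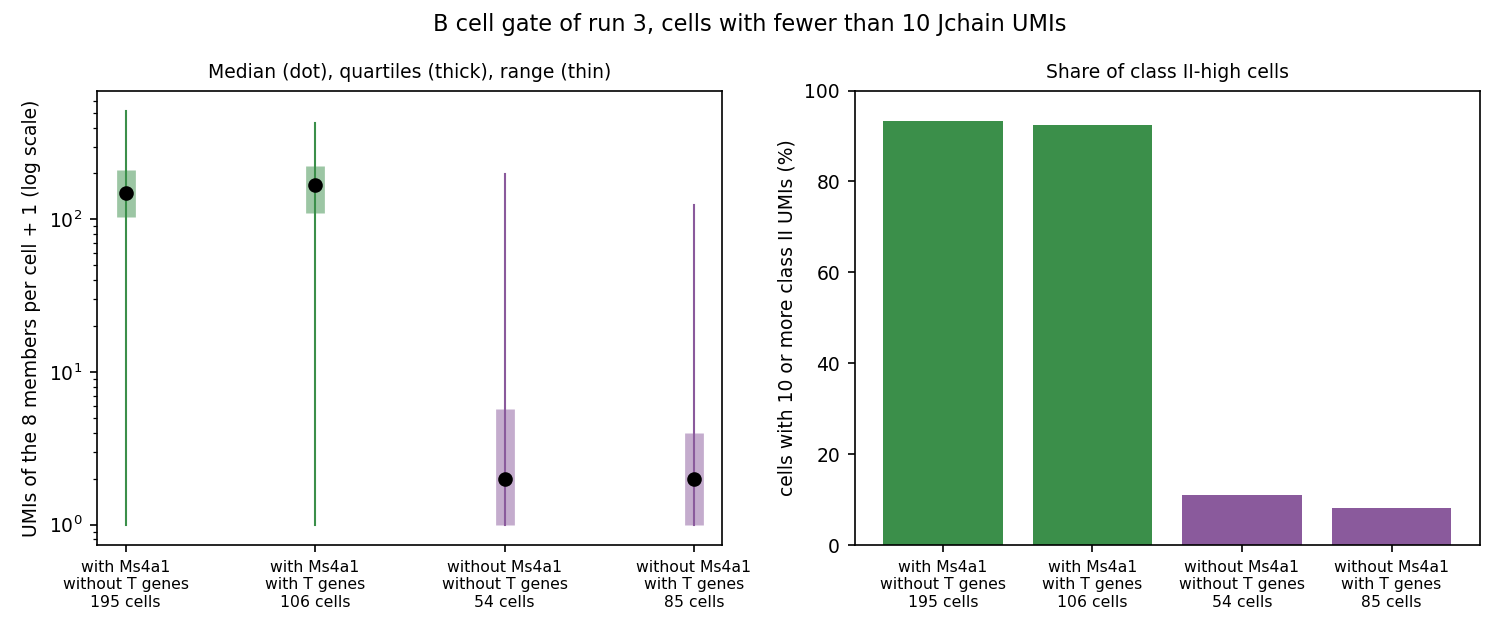
UMIs of the 8 members per cell plus 1 (left, log axis) and share of cells with 10 or more of them (right) in the run 3 B cell gate, divided by Ms4a1 and by T cell marker UMIs. Medians are 148 and 168 UMIs in the groups with Ms4a1 and 1 UMI in both groups without it.

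In run 2, 13 of the 19 cells of the B cell gate had 10 or more Jchain UMIs, and Igkc, the κ light chain, was at 379590 CPM in them. These 13 cells had a median of 63 class II UMIs, and Cd74 was at 5543 CPM but H2-Aa at only 251 CPM, while the 5 cells with Ms4a1 had Cd74 at 13588 and H2-Aa at 3876 CPM. The 7 cells of run 3 with 10 or more Jchain UMIs had Cd74 at 4347 CPM, H2-Aa at 553 CPM and Ciita at 0 UMIs. The 13 cells of run 2 held 53 H2-Aa and 1170 Cd74 UMIs, and the 5 cells with Ms4a1 held 85 and 298. The part of the immunoglobulin UMIs in the lower CPM of the run 2 gate was not tested. H2-Aa stood at 10.1 per 100 Cd74 UMIs in the run 2 gate, against 21.5 and 28.1 in runs 1 and 3, a ratio that other genes' UMIs do not enter.

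Within the 301 cells of run 3 with Ms4a1, the chain genes varied together from cell to cell. Pearson correlations were taken on log2 values of UMIs scaled to the total of each cell, with a pseudocount of 1. They were 0.946 between H2-Aa and H2-Eb1, 0.924 between H2-Aa and H2-Ab1 and 0.809 between Cd74 and H2-Aa. Ciita against H2-Aa reached 0.561 and H2-DMb1 against H2-DMa 0.159. Spearman correlations of the same pairs, in that order, were 0.81, 0.82, 0.71, 0.50 and 0.17. These describe cells of 1 library, scaled for depth but not thinned to a common depth.

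Outside the B cell gate, Cd74 was near the bottom of the scale, and single cells decided several gate values. In run 3 the order was Cd34 (29.7 CPM, 24.3 to 35.9), Apoe (16.5, 10.1 to 25.6), Trdc (13.4, 12.02 to 14.9), reference (10.2, 7.27 to 13.9) and Trac (8.85, 6.90 to 11.2). The intervals of each pair of neighbours overlapped, while that of Cd34 lay above those of Trdc, the reference and Trac. The Cd34 gate stood at 2.92 times the reference (2.01 to 4.31), with the class II-high cells described below included. In run 1 the Trac gate stood first at 76.9 CPM, then the reference at 17.9, Apoe at 13.9, Cd34 at 4.45 and Trdc at 4.06. In run 2 the Apoe gate stood first at 469 CPM, then Trac at 22.9, Cd34 at 3.40, Trdc at 2.62 and the reference at 1.04. The order of the gates thus changed from run to run.

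Cells with at least 10 UMIs over the 8 members, picked by that count and so described without a test, numbered 6, 13 and 24 outside the B cell gates of runs 1, 2 and 3. They were 0.109%, 0.147% and 0.34% of these cells but held 415, 738 and 702 Cd74 UMIs, against 52, 156 and 657 in the other 5505, 8820 and 7040 cells. In run 1, 1 reference cell held 56 of the 57 Cd74 UMIs of the reference and 1 Trac cell 22 of 24. In run 2, 2 Apoe cells held all 51 Cd74 UMIs of that gate, and 1 Trac cell held 107 of 158. In run 3, 8 of the 24 were in the Cd34 gate and 1 Trdc cell held 115 of 335 Cd74 UMIs.

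Some of these cells carried markers of the antigen presenting types, and some of these types bear the CD11b or CD11c that the sort excluded. At least 2 conventional dendritic UMIs were found in 6 of 6, 6 of 13 and 12 of 24 cells of runs 1, 2 and 3. At least 2 macrophage UMIs were found in 2, 4 and 4 of them. Among the other cells outside the B cell gate these shares were 0.454%, 0.397% and 1.97%, and 0.817%, 2.60% and 3.14%. Conventional dendritic cell markers summed to 513, 273 and 150 CPM in them, against 4.31, 7.17 and 10.6 CPM in the other cells outside the B cell gate. Macrophage markers summed to 1132, 706 and 1015 CPM, against 10.7, 28.1 and 20.2 CPM. Plasmacytoid dendritic markers stood out most in run 3, at 2426 against 492 CPM, where Tcf4 was counted in 19 of 24 cells, Irf8 in 17 and Siglech in 9. Siglech was counted in none of the cells of runs 1 and 2. Of the conventional dendritic genes Itgax was counted in 1 of 6, 2 of 13 and 8 of 24 cells, and Xcr1 in none. Of the macrophage genes Lyz2 was counted in 2 of 6, 5 of 13 and 4 of 24 cells, and C1qa in 2 cells, both of run 2. The B cell gate genes were at 45.3, 179 and 37.6 CPM, against 28.5, 36.2 and 44.6 CPM, with Ms4a1, Pax5 and Ebf1 at 0 in all class II-high cells. Both groups were taken outside the B cell gate, which uses these genes, so that low values were set by the choice. The other B cell genes, immunoglobulin genes among them, were at 163215 CPM in the 13 cells of run 2, of which 5 had an Igkc UMI, against 423 and 501 CPM in runs 1 and 3. The epithelial markers Epcam, Krt5, Krt8, Krt18, Foxn1, Psmb11 and Ccl25 summed to 45.3, 37.7 and 34.5 CPM, against 48.7, 41.6 and 69.4 CPM in the other cells.

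Among the 24 cells of run 3, 41.7% were in the top 8% of doublet scores, against 7.32% of the others, while in runs 1 and 2 these shares were 16.7% and 0% against 7.99% and 8.03%. T cell markers were at 1978, 1742 and 727 CPM in the class II-high cells and at 3621, 4224 and 3555 CPM in the others. The part of doublets in these values was not tested.

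Without these cells, Cd74 in run 3 lay between 8.82 and 11.7 CPM in the 4 other gates and the reference. It lay between 0.31 and 13.9 CPM in run 1 and between 0 and 7.38 CPM in run 2. The run 2 Apoe gate went from 469 to 0 CPM on 11 cells, where 0 UMIs still allow up to 38.5 CPM. The run 3 Cd34 gate went from 29.7 to 11.2 CPM (7.90 to 15.3). Since these cells were chosen by class II UMIs, Cd74 included, a fall was set by the choice.

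**Figure D4:**
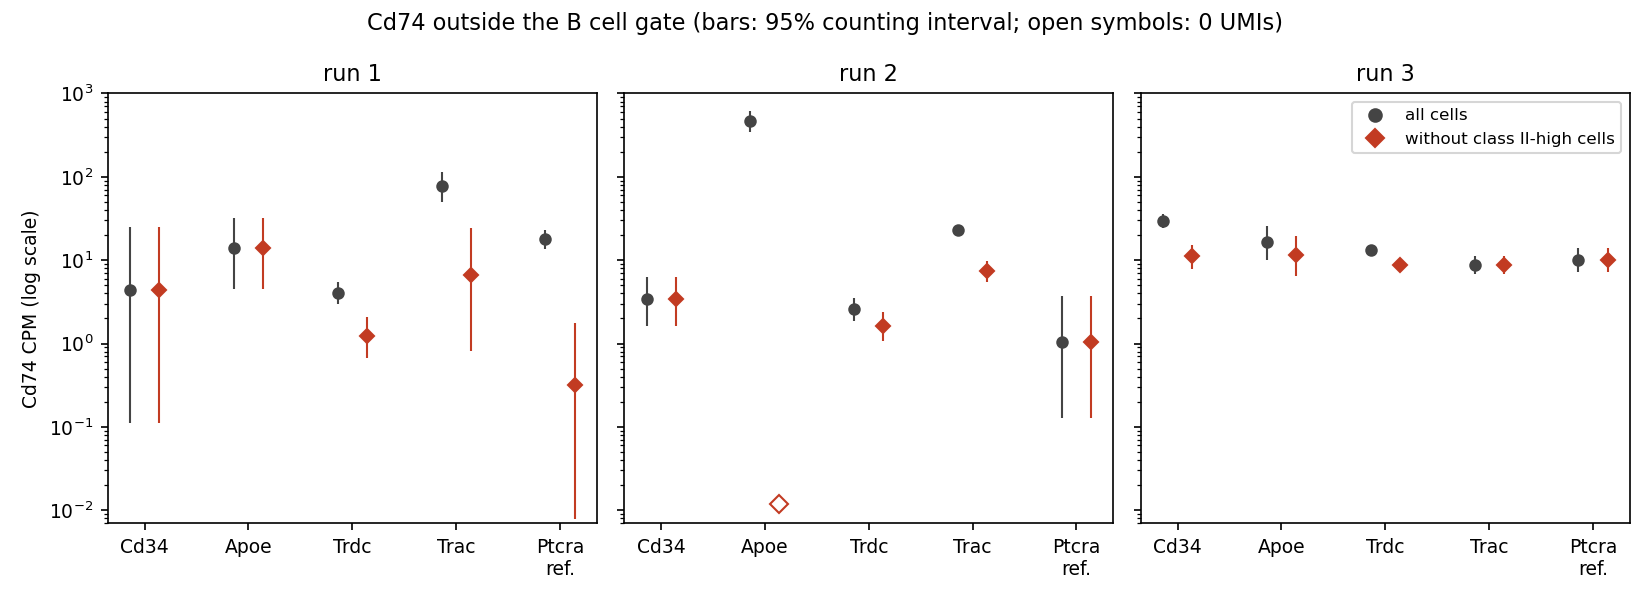
Cd74 CPM (log axis) in the 4 gates and the Ptcra reference of each run, with all cells (circles) and without cells of 10 or more class II UMIs (diamonds), and exact Poisson 95% intervals as bars. In run 3 the diamonds lie between 8.82 and 11.7 CPM, and in run 2 the Apoe gate goes from 469 CPM to 0 UMIs, drawn as an open symbol.

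Shares of cells with a Cd74 UMI were read against the reference, which should lack the gene. In run 3, 9.31% of the reference cells (6.70 to 12.5) had a Cd74 UMI at a median depth of 7456 UMIs, as did 9.82% of Trdc cells at 10123, 6.13% of Trac cells at 6662, 11.2% of Apoe cells at 8679 and 18.3% of Cd34 cells at 15500.5. After each cell was thinned to 2000 UMIs the shares were 1.43%, 2.14%, 1.33%, 3.74% and 4.46%, and 74.8% in the B cell gate. In run 1 the reference had 0.434% (0.0526 to 1.56) at a median depth of 5604 UMIs, the Trdc gate 0.857% at 7620, the Trac gate 9.38% (1.98 to 25.02) at 9396, the Apoe gate 4.65% at 7720 and the Cd34 gate 3.33% at 7330. In run 2 the reference had 0.725% (0.0879 to 2.59) at 5793 UMIs, the Trdc gate 0.84% at 6248, the Trac gate 1.82% (1.27 to 2.53) at 2938, the Apoe gate 15.4% at 6768 and the Cd34 gate 2.80% at 8293. The Trac shares of these runs thus lay above their references, in run 1 with intervals that did not overlap at full depth. After thinning to 2000 UMIs the run 1 intervals overlapped, at 6.25% (0.766 to 20.8) for Trac and 0.217% (0.00549 to 1.20) for the reference. In run 3 the Trac share lay below the reference. The intervals of the Trac (4.71 to 7.82), Trdc and Apoe shares all overlapped that of the reference. The thinned Cd34 share (2.16 to 8.06) was the highest of the 4 gates and also overlapped the thinned reference (0.527 to 3.09).

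Cd74 was also set against Igkc, which thymocytes do not make, in each gate. In run 3 there were 0.326 Cd74 UMIs per Igkc UMI in the B cell gate, 0.318 in the reference, 0.432 in the Trdc gate, 0.187 in the Trac gate, 0.714 in the Apoe gate and 1.12 in the Cd34 gate. In run 2 the values were 0.0187 in the B cell gate, 0.0247 in the reference and 0.0335 in the Trdc gate. They were 0.0629 in the Cd34 gate, 0.383 in the Trac gate and 5.67 in the Apoe gate. The 7 cells of the run 3 B cell gate with 10 or more Jchain UMIs weigh heavily in its value. They had Igkc at 387432 CPM but held 692 of the 26008 Cd74 UMIs of that gate. Its 301 cells with Ms4a1 and fewer Jchain UMIs had Igkc at 8297 CPM and held 24787. In run 2 the 13 cells with 10 or more Jchain UMIs had Igkc at 379590 CPM. The ratios outside the B cell gate include the class II-high cells. Without those cells the Cd74 UMIs of run 3 went from 105 to 38 in the Cd34 gate and from 20 to 14 in the Apoe gate. In run 2 they went from 158 to 51 in the Trac gate and from 51 to 0 in the Apoe gate. Run 1 had 0 Igkc UMIs in the reference and 1 in the Trdc gate, so that no ratio could be read between them. Over all 10 B cell genes outside the gate list the run 3 ratio was 0.265 in the B cell gate and 0.0356 in the reference. In that reference 997 of the 1123 UMIs of the list came from genes other than Igkc, against 18141 of 97995 in the B cell gate. In run 1 all 1391 reference UMIs of the list came from such genes. The ratio over the list thus cannot be read as a second measure of B cell RNA in the reference. Whether free RNA from B cells gave the Cd74 UMIs of the thymocyte gates was not tested.

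H2-DMa was counted in every gate of thymocytes, with the Trac gate lowest and the Cd34 gate highest in run 3. It was at 35.6, 81.3 and 91.5 CPM in the Cd34 gates of runs 1, 2 and 3, at 22.2, 73.6 and 43.8 CPM in the Apoe gates, at 35.5, 53.1 and 45.3 CPM in the Trdc gates and at 106, 41.1 and 22.3 CPM in the Trac gates. The reference had 41.4, 62.1 and 46.8 CPM, with a UMI in 26.5%, 31.9% and 34.4% of cells. A single class II-high cell gave 23 of the 33 UMIs of the run 1 Trac gate, and without it that gate was at 33.4 CPM. The B cell gates of runs 1, 2 and 3 held 0.85%, 0.38% and 20.3% of the H2-DMa UMIs of their run, against 40.7%, 62.7% and 95.03% for Cd74.

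The proportions of the members therefore differed between gates. For each 100 Cd74 UMIs, H2-DMa gave 4.05, 0.73 and 3.39 UMIs in the B cell gates and 232, 5950 and 460 in the reference. The reference values are over 57, 2 and 40 Cd74 UMIs, of which 1 cell held 56 in run 1. H2-DMa gave between 138 and 2390 in the Cd34, Trdc and Trac gates, and 160, 15.7 and 265 in the Apoe gates, where the run 2 value is 8 UMIs against 51 Cd74 UMIs. H2-Aa, by contrast, gave 21.5, 10.1 and 28.1 in the B cell gates and 39.1, 19.1 and 28.1 in the Trdc gates. H2-Ab1 stood between these, at 31.2, 10.4 and 26.9 in the B cell gates and 335, 548 and 101 in the Trdc gates, and without the class II-high cells it was at 12.4, 14.4 and 12.1 CPM there. So H2-DMa and H2-Ab1 in the Trdc gate were not in their proportion to Cd74 in the B cell gate of the same library. H2-Aa was close to its proportion there in run 3, where 1 Trdc cell held 41 of the 94 H2-Aa UMIs. In the other run 3 gates H2-Aa gave 49.5 (Cd34), 32.9 (Trac) and 20 (Apoe), and 20 in the reference. The antisense overlap of H2-DMa with Brd2 lies at the 5′ end of H2-DMa, and how strand entered the counting is not given in the sources used here.

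**Figure D5:**
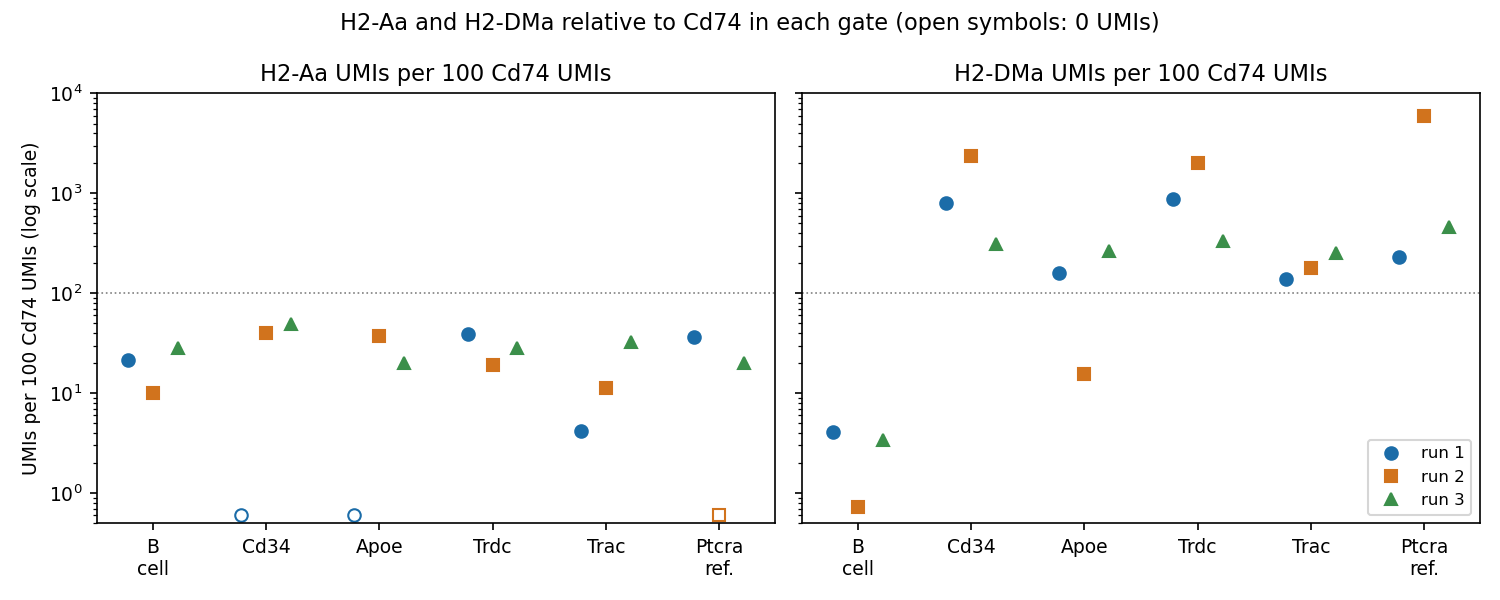
UMIs of H2-Aa (left) and H2-DMa (right) per 100 Cd74 UMIs in each gate, log axis, 1 symbol for each run, open symbols for 0 UMIs and a dotted line at 100. H2-DMa is at 0.73 to 4.05 in the B cell gates at 138 or more in the Cd34, Trdc and Trac gates and in the reference, and at 15.7 to 265 in the Apoe gates, while H2-Aa stays at 49.5 or less in every gate.

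No member was called higher in the Cd34 gate, against 8.33% of all genes tested, and none lower, against 4.99%. The median log2 difference was 0.69, against -0.0042 over all genes tested. The fits of all gates included the class II-high cells, 1 of which held 56 of the 57 Cd74 UMIs of the run 1 reference. No fit was run without these cells. H2-DMa had a log2 difference of 0.70 ± 0.34 (edgeR adjusted p = 0.217), with ratios to the reference of 0.86 (0.36 to 1.74), 1.31 (1.05 to 1.65) and 1.96 (1.63 to 2.36) in runs 1, 2 and 3. Under stricter gates, with 2 or more Cd34 UMIs, it was called higher at 1.21 (edgeR adjusted p = 0.00081), as were H2-DMb1 at 1.30 and Ciita at 3.36. The share of all genes called under those stricter gates is not reported here. In the main fit Ciita was the only member past an unadjusted p under 0.05, on 0, 0 and 11 Cd34 gate UMIs (edgeR adjusted p = 0.097). DESeq2 also called 0 members higher.

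Divided by Kit, a receptor of early progenitors, H2-DMa was at 88.9 CPM with and 75.8 without it in run 2 and at 99.2 and 64.0 CPM in run 3. Divided by Flt3, a receptor of multipotent progenitors, it was at 163 CPM (119 to 219) in the 23 cells with it and 72.8 CPM (62.9 to 83.8) in the 298 without it in run 2, and at 138 CPM (109 to 171) and 82.4 CPM (72.3 to 93.4) in run 3. The intervals of these runs did not overlap, but they leave out the spread between cells, and run 1 had no Cd34 cell with Flt3. Median depth was 11462 UMIs with Flt3 and 8173 without it in run 2, and 18180.5 and 15064.5 in run 3. At least 2 T cell marker UMIs were found in 78.3% and 92.6% of these cells in run 2, and in 76.5% and 92.6% in run 3. In run 3, 32.4% of the cells with Flt3 and 11.1% of those without it were among the highest doublet scores, and in run 2 these shares were 8.70% and 7.38%. Of the other pathway genes, 5 of 19 were called higher and 1 lower, against 8.33% and 4.99% of all genes tested. H2-Ob was at 4.45, 24.5 and 31.9 CPM against 0.94, 0 and 1.78 CPM in the reference, and Ctss at 0, 18.0 and 18.4 CPM against 2.82, 3.13 and 1.27 CPM. Lgmn, Nfya and Cd86 were the other 3, and Ctsl the lower one. Macrophage markers summed to 40.0, 50.7 and 116 CPM in the Cd34 gate against 12.6, 33.9 and 19.8 CPM in the reference, and conventional dendritic markers to 4.45, 17.0 and 24.3 CPM against 2.51, 0.52 and 1.78 CPM. The part of both was not tested.

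In the Apoe gate no member was called in either direction, against 0.159% of all genes tested higher and 0% lower, and 1 member, Cd74, passed an unadjusted p under 0.05. The median over the members was 0.71, against -0.04 over all genes tested. The Cd74 log2 difference of 2.91 ± 1.21 (edgeR adjusted p = 1) went with 2 class II-high cells, which held all 51 of the run 2 UMIs. DESeq2 called 0 members higher there. In the run 2 gate the 3 cells without Ptcra held 38 of its 51 Cd74 UMIs, and macrophage markers summed to 94.4, 488 and 36.4 CPM in the 3 runs against 12.6, 33.9 and 19.8 CPM in the reference. No pathway gene was called in this gate, with 2 past an unadjusted p under 0.05.

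In the Trdc gate no member was called higher, against 3.24% of all genes tested, and no member passed an unadjusted p under 0.05 as higher. DESeq2 likewise called 0 higher. The median log2 difference was -0.30, against 0.0042 over all genes tested. This fit included the class II-high cells. With them, Cd74 in run 1 was at 17.9 CPM in the reference and 4.06 CPM in the Trdc gate. Without them it was at 0.31 and 1.24 CPM in run 1, at 1.04 and 1.62 CPM in run 2 and at 10.2 and 8.82 CPM in run 3. Of the 8 members 1 was lower, against 1.9%: H2-DMb2, at 1.68, 2.19 and 1.60 CPM on 19, 35 and 40 UMIs against 3.14, 7.30 and 4.07 CPM in the reference (log2 difference -1.33 ± 0.35, edgeR adjusted p = 0.0317). This call was lost without any 1 of the runs, at edgeR adjusted p between 0.0538 and 0.425. The reference was chosen for having no B cell gate UMI, which the Trdc cells were not.

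Trdc cells were further divided by maturity. H2-DMa was at 34.3, 53.3 and 44.8 CPM in Trdc cells with Cd24a, a marker of immature thymocytes, and at 49.8, 50.4 and 48.1 CPM in those without it. Conventional dendritic markers summed to 8.65, 8.31 and 16.5 CPM in the Trdc gates and to 2.51, 0.52 and 1.78 CPM in the reference, and their part in the values was not tested. Of the 19 pathway genes 3 were called higher (H2-Oa, H2-Ob and Ctss) and 0 lower, against 3.24% and 1.9% of all genes tested. H2-Oa, the DO α chain, was at 15.4, 18.4 and 26.5 CPM in the Trdc gates against 9.10, 8.35 and 9.66 CPM in the reference (log2 difference 1.15 ± 0.25).

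In the Trac gate 1 member was called higher, against 23.5% of all genes tested, and 1 lower, against 18.8%, with a median log2 difference of -0.30 against 0.04 over all genes tested. Ciita had 0, 10 and 26 UMIs, or 0, 1.45 and 3.29 CPM, against 1, 0 and 1 UMIs in the reference (log2 difference 3.59 ± 0.85, edgeR adjusted p = 0.00256, which depends on the prior count). In run 3 its ratio to the reference was 12.9 (2.12 to 530). Ciita had passed the filter on low counts through its level in the B cell gate. The call was lost without run 3, at 3.31 (edgeR adjusted p = 0.189), and without the run block. The overlap with Dexi on the opposite strand takes in the 3′ end of Ciita. How strand entered the Ciita counts of any gate is not given in the sources used here.

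H2-DMb2 had 0, 4 and 4 UMIs in the Trac gates, or 0, 0.58 and 0.51 CPM (log2 difference -2.85 ± 0.56, edgeR adjusted p = 4.0e-04), and was called lower in each alternative fit that was run. H2-Ab1 (9.62, 9.54 and 4.05 CPM), H2-DMa and H2-DMb1 (38.5, 3.18 and 1.01 CPM) did not pass the test. H2-Ab1 was called lower without run 2, at -1.35 (edgeR adjusted p = 0.0175), and H2-DMb1 under stricter gates, at -1.45, and without run 1, at -1.75. Most Trac cells of runs 2 and 3 had Nkg7, a granule gene of cytotoxic and innate-like lymphocytes, namely 1546 of 1919 and 749 of 979. H2-DMa was at 33.3 CPM with Nkg7 and 66.8 without it in run 2, and at 20.8 and 25.3 CPM in run 3. Of the 19 pathway genes 6 were called higher (Ctss, Lgmn, Ifi30, Cd83, Cd86 and Cd40) and 2 lower (Ctsl and Nfya), against 23.5% and 18.8% of all genes tested, with Ctss at 32.1, 102 and 82.0 CPM. Conventional dendritic markers summed to 54.5, 9.83 and 6.70 CPM in the Trac gates against 2.51, 0.52 and 1.78 CPM in the reference, and their part was not tested.

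The genes whose pattern over the 17 sums was most like that of Cd74, by Pearson correlation of log2(CPM + 1), were H2-Aa (0.955), H2-Eb1 (0.954), Bhlhe41 (0.930), Syvn1 (0.921) and Ctsh (0.907). Over the 15 sums without the B cell gate they were H2-Aa (0.852), H2-Eb1 (0.844), Aif1 (0.821), Plbd1 (0.786) and Syvn1 (0.776). For H2-DMa, added after the data had been seen, they were Lyn (0.866), Zeb2os and Bcl11a (0.841 each), H2-DMb1 (0.839) and Fcgr2b (0.813). Without the B cell gate they were Map4k1 (0.853), Bcl11a (0.838), Gm10384 (0.837), Pheta2 (0.830) and 0610009L18Rik (0.830). The sums share libraries by run, and no test was made.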

How the data were processed

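The counts were whole UMI counts per gene and cell, which the authors made with Cell Ranger on mm10 and deposited with no normalization. Its version for runs 1 and 2 is not stated in their files, and the submitters' notes also name R 3.6.3 and Seurat 2.3. The 8 members, the gates and the lists of genes were chosen with earlier results of these data known.

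Cells with fewer than 500 or more than 5000 genes, or over 7% mitochondrial counts, were left out, and the rest were gated by UMIs. Counts were summed per gate and run for gates of at least 10 cells. They were tested with edgeR 4.0.16 (quasi-likelihood F test, two-sided, TMM, filterByExpr, run as a block). The SE of a log2 difference was computed back from the test, as its size over the square root of the F statistic. Adjusted p-values were by Benjamini-Hochberg over 11297 genes, with a threshold of 0.05. With 9 residual degrees of freedom from 3 pools sequenced once each, p-values measure the spread between these sums. The fit was tested on simulated data. The genes that define the gates were among the 11297 but were left out of the shares and medians, which are over 11286 genes. Doublets were not removed, and the 8% of cells with the highest Scrublet scores (scanpy 1.11.5) were removed as an alternative. Python 3.11.15, scipy 1.17.1, R 4.3.3 and DESeq2 1.42.0 were also used. CPM scales the summed cells of a gate to a fixed total of UMIs. Shares of cells carry exact Clopper-Pearson 95% intervals, and were also taken after thinning each cell to 2000 or 1000 UMIs. Free RNA was not removed.

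The genes named are the 8 members, the fixed list of 23 pathway symbols and the 5 genes most like Cd74 among those with at least 10 CPM in 1 sum. The divisions by Ms4a1 and Jchain and the ratio to Igkc were added after the data had been seen, as were the likeness to H2-DMa, the levels without class II-high cells and the motif GATGATGCT. Alternatives were other scalings, tests, filters, gates and limits, and leaving out each run. Some genes and results are not reported here.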

Additional observations from a re-analysis of the deposited data

Results flagged for a closer look

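Cells outside the limits on genes and mitochondrial counts, which enter no comparison above, also held Cd74. In run 2 these 35 cells had Cd74 at 320.5 CPM (240.8 to 418.2), and all 54 UMIs came from 1 cell that met the B cell gate. In run 3 the 1358 cells had Cd74 at 80.22 CPM (76.37 to 84.22), and 1436 of the 1624 UMIs came from 63 cells that met the B cell gate. Both values were above the reference cells of the same run, at 1.04 and 10.2 CPM. Run 1 had 0 UMIs in 11 such cells, where 3 counts would be 20.82 CPM.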

How the results depend on the processing

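No difference between a gate and the reference changed sign while called, and 461 of 480 log2 values of members stayed on their side of the threshold. The 8 members called in the B cell gate stayed called without run 1, whose B cell gate was not in the fit. Without run 2 or run 3 the gate was left with the sum of the other run alone, so that calls of those fits are no check by replicates. The log2 differences of H2-DMa, H2-DMb1 and Ciita fell without run 3. The 0 called in the Cd34 gate became 3 under stricter gates, and the 1 called in the Trac gate became 0 without the run block and 0 to 1 when each run was left out. H2-DMb1 in the B cell gate lost its call without the run block, at 3.09 (edgeR adjusted p = 0.0996). H2-DMb2 in the Trdc gate lost its call in 7 alternatives (adjusted p between 0.0538 and 0.605). In the Trac gate H2-DMb1 gained a call as lower in 2 alternatives and H2-Ab1 in 1. The labels number no replicates across runs, and the run block stands for the pairing of gates within a run.

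Counts of all genes called higher moved more. In the B cell gate 1535 became 516 without the run block, 858 with looser gates and 263 to 1548 when each run was left out. In the Cd34 gate 940 became 610 with DESeq2, 156 without the run block and 199 to 937. In the Apoe gate 18 became 6 with DESeq2, 34 without a filter on low counts, 0 without the run block, 2 with looser gates, 59 with cells of several gates counted in each and 3 to 21. In the Trdc gate 366 became 129 with DESeq2, 3 without the run block, 595 with stricter and 131 with looser gates, and 31 to 443. In the Trac gate 2649 became 1688 without TMM, 730 without the run block and 1116 to 2481. The lowest of each range was without run 3. For the B cell gate, the fits without run 2 or run 3 had the sum of the other run alone. The cause was not tested.

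Cd74 in the B cell gate of run 2 was at 8386 CPM with stricter and 5486 CPM with looser gates. In run 3 it was at 9587 and 5664 CPM, at 9766 CPM with doublets removed, at 7789 CPM with a 5% mitochondrial limit and at 5915 CPM with no upper gene limit. The share of cells with a Cd74 UMI in the run 3 B cell gate was 74.77% and 70.63% after thinning to 2000 and 1000 UMIs. In the reference it was 0% and 0% in run 2, and 1.432% and 0.4773% in run 3. Of the CPM values of members in the gates, 949 of 1134 moved by less than their counting interval. Depth limits Ciita, with 7 and 24 UMIs in runs 1 and 2, and the B cell gates of 5 and 19 cells.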
